A study of Glycine max with 30 samples.

Results

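Leaf messenger RNA was compared between plants that carried no transgene in both soybean (Glycine max) families of cultivar Mustang. One family was made with the GmNRPE1-RNAi construct and the other with GmNRP(D/E)2-RNAi, and the 6 plants without transgene of each were taken by their titles, 12 of the 30 libraries of the series. All 12 were mature leaves, sequenced as poly(A) RNA. They share cultivar, tissue and the absence of the transgene, and differ in the family they came from. The labels give no age, generation, number of transformation events per family, sowing date or sequencing lane, so descent and anything handled family by family cannot be told apart. Both families also hold 6 transgenic plants each, and the GmNRPD1-RNAi family of cultivar Jack holds 3 non-transgenic plants; these serve for reference.

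NRPE1 is the largest subunit of RNA polymerase V, and NRP(D/E)2 is a second subunit used by both polymerase IV and polymerase V. Both enzymes serve RNA-directed DNA methylation, in which small RNAs direct methylation to transposons and to some genes. A family that segregates for an RNAi construct gives plants with and without it, and those without serve as its controls. The comparison of both control sets asks how far apart the families stand in plants that carry no construct.

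Library totals ran from 11172345 to 17961262 counts. Total counts were 14761139 ± 2153624 in the NRPE1 family and 14915875 ± 2646470 in the NRP(D/E)2 family (SD, n = 6), and a two-sided exact permutation test gave p = 0.905 (Benjamini-Hochberg value 0.905 over 3 library measures). At a common depth of 11172345 counts, 38031 ± 330 genes were detected in the NRPE1 family and 37748 ± 838 in the NRP(D/E)2 family (SD, n = 6, exact p = 0.498, Benjamini-Hochberg value 0.747). The count tables list 55589 Glyma identifiers without names, and 0 of them could be paired with an entry of the 59048 RefSeq genes. Genes are therefore given by identifier, at most 2 in each direction, and the leaf identity of the samples and the level of the targeted subunits were not checked against genes. Counts were not scaled by gene length. Levels are compared mainly between plants, and where genes are classed or ranked by CPM, their order also depends on gene length. In a bulk leaf sample, fewer cells of a type and less RNA per cell cannot be told apart.

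Transcripts switched on in transgenic plants were low in the 12 non-transgenic libraries. In the transgenic plants of the NRP(D/E)2 family, 56 tested genes were switched on, with a mean under 0.1 CPM in non-transgenic plants and at least 0.5 CPM in every transgenic library (CPM, counts per 1000000 counts after TMM scaling). Read in the other family, between 47 and 54 of the 56 reached 0.5 CPM in each NRPE1 transgenic library, with summed levels of 345 to 788 CPM. In NRPE1 non-transgenic libraries between 3 and 9 reached that level, and the sums ran from 9.37 to 40.7 CPM. The converse list, 40 genes switched on in NRPE1 transgenic plants, had 0 to 2 genes at 0.5 CPM in the NRP(D/E)2 non-transgenic libraries (sums 1.08 to 2.42 CPM) and 32 to 36 genes in the transgenic ones (sums 128 to 235 CPM). On these lists the libraries of either kind did not overlap.

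Family membership was the leading axis of variation among the leaves. On the first principal component of the 12 libraries, which held 52.9% of the variance, the NRP(D/E)2 plants lay between −122 and −77.1 and the NRPE1 plants between 64.7 and 117. With the transgenic plants added, 24 libraries in all, family still separated every library along the first component (40.1% of the variance), and on the second component (21.9%) the NRP(D/E)2 plants lay between −146 and −24.3 without and between 33.5 and 116 with the transgene. Correlations of log2(CPM + 1) across genes were 0.912 to 0.972 between libraries within the NRP(D/E)2 family, 0.83 to 0.978 within the NRPE1 family and 0.766 to 0.859 over the 36 pairs across families. NRPE1 replicate 4 stood apart within its family. Its correlations with the others were 0.83 to 0.907, while the other 5 correlated at 0.926 or more, and on the second component of the 24 libraries it lay at 83, within the range of the transgenic NRPE1 plants (−8.47 to 119), while the other 5 lay between −118 and −18.6. On the 56 genes switched on in transgenic plants it showed 4 genes at 0.5 CPM and a sum of 12.4 CPM, within the range of the other NRPE1 non-transgenic plants.

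**Figure D1:**
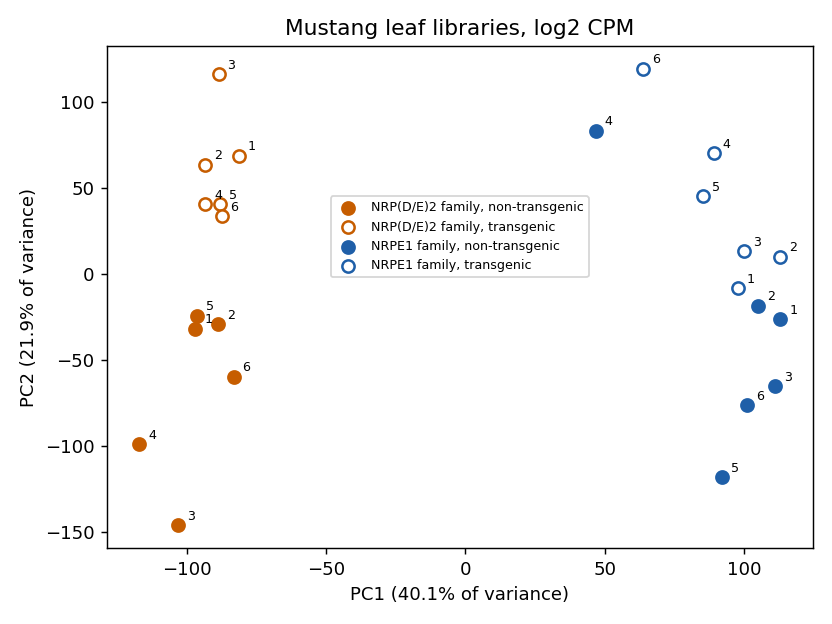
Principal components of log2 CPM in the 24 Mustang leaf libraries; the axes give the percent of variance, colours the family, filled points non-transgenic and open points transgenic plants, and numbers the replicate. All NRP(D/E)2 libraries lie left of 0 on the first component and all NRPE1 libraries right of it, with NRPE1 non-transgenic replicate 4 at 83 on the second.

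The families differed in 38.5% of the leaf genes tested, about evenly in both directions under TMM scaling but mostly higher in the NRP(D/E)2 family under total count scaling. With edgeR's quasi-likelihood test, 11989 of 31121 genes were called at a Benjamini-Hochberg adjusted p under 0.05. Of these, 6098 (19.6% of tested genes) were higher in the NRPE1 family and 5891 (18.9%) in the NRP(D/E)2 family. Their median log2 differences, coded as NRPE1 minus NRP(D/E)2 throughout, were 1.16 and −0.96. The median over all tested genes was 0.006. A change of at least 2-fold was seen in 6307 called genes, of at least 4-fold in 2211 and of at least 8-fold in 863. Higher in the NRPE1 and in the NRP(D/E)2 family were 3500 against 2807 genes at 2-fold or more, 1463 against 748 at 4-fold or more and 595 against 268 at 8-fold or more.

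The balance of directions depends on how the libraries are scaled. TMM scaling factors were 0.893 to 0.981 in the NRPE1 family and 1.02 to 1.12 in the NRP(D/E)2 family, with no overlap. Without them, under scaling to total counts, the median of all genes moved to −0.18, and 4378 genes were called higher in the NRPE1 family against 8931 higher in the NRP(D/E)2 family, so that higher calls made up 32.9% in place of 50.9%. Without NRPE1 replicate 4, 13375 genes were called, 6585 higher and 6790 lower.

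For many genes the groups did not overlap at all. In 6121 tested genes (19.7%) the 6 plants of one family all lay above the 6 of the other, 3124 times with NRPE1 higher and 2997 times with NRP(D/E)2 higher, and 6095 of these genes were called. The share of called genes without overlap grew with the size of the difference, from 34.3% of those under 2-fold to 58% between 2-fold and 4-fold, 72.9% between 4-fold and 8-fold and 91.2% at 8-fold or more. The standard deviation of log2(CPM + 1) among plants of a family had a median over genes of 0.29 in the NRP(D/E)2 family and 0.31 in the NRPE1 family. The median absolute log2 difference between families was 0.46 over all tested genes and 1.05 over the called ones. The deviations describe single plants with 1 CPM added, and the differences are fitted between groups of 6 plants, so the measures are not alike. Of the 19132 genes not called, 13202 (69%) had a 95% interval of the difference that lay within 2-fold in either direction; for the others the data allow a difference of that size.

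Fewer genes were called between plants with and without a construct, in the same kind of test with 6 plants against 6. The NRP(D/E)2 transgene comparison called 5037 of 31773 genes (15.9%) and the NRPE1 transgene comparison 618 of 31440 (1.97%). Median absolute log2 fold changes over all tested genes were 0.3 and 0.2 in that order, against 0.46 between the non-transgenic families. Called genes with at least a 2-fold change numbered 2360, 470 and 6307 in the same order. These comparisons share their non-transgenic libraries, and the difference in counts was not tested. The NRPE1 transgene comparison includes non-transgenic replicate 4, which lay within the range of the transgenic NRPE1 plants on the second principal component. It was not repeated without that library.

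Each of 4 genes was near 0 in one family and expressed in every plant of the other. They are the first 2 in each direction, by log2 fold change, among 5262 called genes whose families did not overlap and whose higher family averaged 5 CPM or more. Their call and separation in non-transgenic plants thus follow from the rule. Their CPM values are scaled over all 30 libraries.

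Glyma.10G168200, on chromosome 10, was present in every NRPE1 plant, with 75.8 CPM in the lowest, a median of 203 and 257 in the highest. In the NRP(D/E)2 family it ran from 0 to 0.178 CPM with a median of 0.0988, and 2 of 6 libraries held no count. The lowest NRPE1 plant was far above the highest NRP(D/E)2 plant. The log2 difference was 10.94 with an SE of 0.50 (edgeR adjusted p = 1.35e-08).

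Glyma.16G094000, on chromosome 16, was also expressed in every NRPE1 plant. These had 15.2 to 32.5 CPM with a median of 19.9, whereas 4 of the 6 NRP(D/E)2 libraries were at 0 and the highest had 0.103 CPM. With 3 counts in all in the NRP(D/E)2 family, the ratio of summed counts was 698 with a 95% counting interval of 238 to 3390. The fitted log2 difference of 9.16 with an SE of 0.47 (edgeR adjusted p = 2.83e-08) depends on the prior count. Intervals on counts cover counting error only.

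Glyma.11G229700, on chromosome 11, was the counterpart in the NRP(D/E)2 family, where the plants had 68.9 to 115 CPM with a median of 76.1. All 6 NRPE1 libraries held low counts of it, from 0.0525 to 0.2 CPM with a median of 0.0804. The families did not overlap, with a log2 difference of −9.52 and an SE of 0.25 (edgeR adjusted p = 2.81e-10).

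Glyma.13G357500, on chromosome 13, had a median of 61.7 CPM in NRP(D/E)2 plants, from 34.7 to 78.4. In NRPE1 plants it ran from 0 to 0.315 CPM with a median of 0.0343, and 3 of 6 libraries had no count. The families did not overlap. The log2 difference was −9.16 with an SE of 0.52 (edgeR adjusted p = 5.4e-08). In Jack plants without a transgene, Glyma.10G168200 (64.9 to 245 CPM, n = 3) and Glyma.16G094000 (1.42 to 35.7 CPM) were on, and Glyma.11G229700 (0 to 0.117 CPM) and Glyma.13G357500 (0 to 0.203 CPM) were at or near 0. For all 4 genes Jack was thus on the side of the NRPE1 family.

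**Figure D2:**
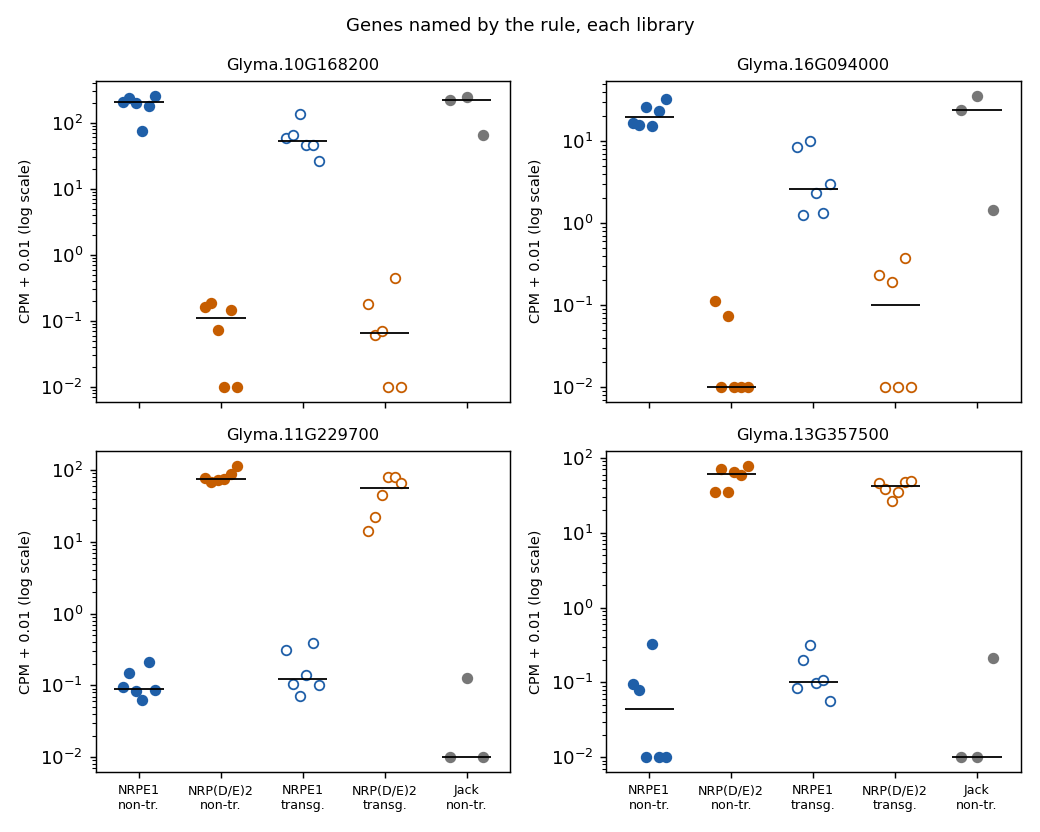
CPM of the 4 genes in each library (vertical log axis, 0.01 CPM added so that libraries at 0 appear at 0.01), with filled points for non-transgenic and open points for transgenic plants and a line at the median of each group. In all panels the points of the NRPE1 and NRP(D/E)2 families do not overlap, in non-transgenic and in transgenic plants, and Jack plants lie on the side of the NRPE1 family.

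A small set of genes was off in one family and on in every plant of the other. By a mean under 0.1 CPM in one family and at least 0.5 CPM in each library of the other, 35 of 55589 genes (0.063%) were on in the NRPE1 family only and 29 (0.0522%) in the NRP(D/E)2 family only. The 35 had a median of 3.43 CPM where they were on and a highest mean of 192 CPM; the 29 had a median of 1.43 and a highest mean of 56.9 CPM. They came from 17 and 15 chromosomes. Without NRPE1 replicate 4 the counts were 55 and 37. In transgenic plants all 35 kept the higher mean in the NRPE1 family, 31 without overlap, and 28 of the 29 the higher mean in the NRP(D/E)2 family, 19 without overlap. Over all 55589 genes, transgenic families did not overlap in 6.67% with NRPE1 higher and in 5.66% with NRP(D/E)2 higher. Over the 32254 genes tested in transgenic plants these shares were 10.7% and 9.2%. Both lists were chosen for their separation in non-transgenic plants. Of genes called there at 8-fold or more and tested in transgenic plants, 99% kept the sign, so persistence is not particular to these lists.

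Differences were found at all levels of expression, and calls among abundant transcripts were more often higher in the NRPE1 family. The share of tested genes called was 24.3% of 1026 genes under 1 CPM, 36.2% of 12329 between 1 and 10 CPM, 40.2% of 16151 between 10 and 100 CPM and 48.3% of 1615 over 100 CPM, where the class is the mean of both family means. Genes with few counts are harder to call, so the shares called do not compare how often genes of each class differ. Higher calls in the NRPE1 family made up 37.8%, 47%, 51.7% and 70% of the calls in these classes in turn. Over 100 CPM that was 546 genes higher in NRPE1 plants against 234 higher in NRP(D/E)2 plants. Under total count scaling the shares were 23.7%, 32%, 31.5% and 53.5%, so that only the class over 100 CPM kept a majority in NRPE1 plants.

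Among the 100 genes with the highest mean, 43 were called higher in the NRPE1 family and 13 in the NRP(D/E)2 family (37 and 20 under total count scaling), and among the top 1000 it was 368 against 129 (306 and 221). The top 1000 of the joint ranking took 40% ± 3.02 of the counts in NRPE1 libraries and 35.4% ± 0.856 in NRP(D/E)2 libraries (SD, n = 6). The share of counts in a library's own 10 most abundant genes was 3.25% to 4.99% with a mean of 4.38% ± 0.636 in the NRPE1 family and 3.52% to 4.42% with a mean of 3.92% ± 0.328 in the NRP(D/E)2 family. The groups overlapped, and a two-sided exact permutation test gave p = 0.158 (Benjamini-Hochberg value 0.474). Without NRPE1 replicate 4, which had the 3.25%, the exact p was 0.0152.

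**Figure D3:**
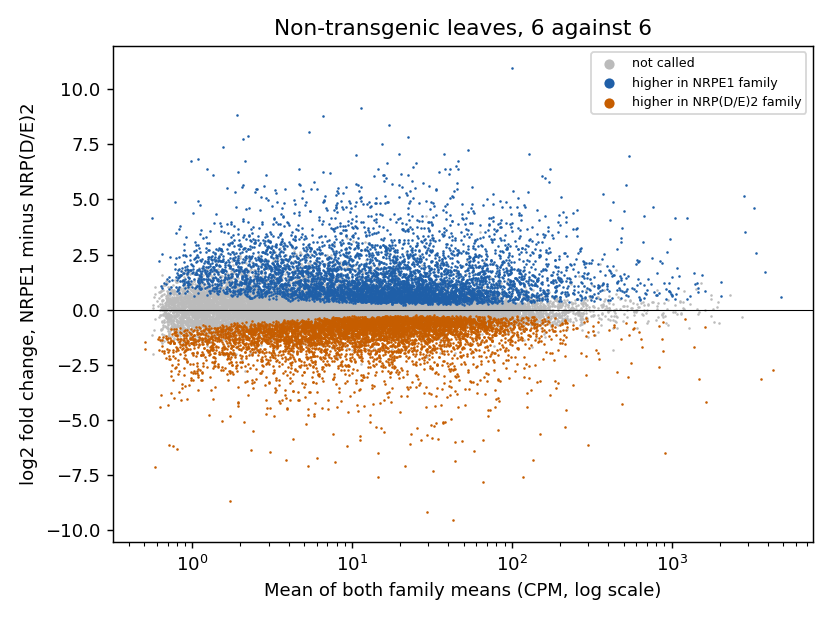
Log2 fold change between families (NRPE1 minus NRP(D/E)2, non-transgenic, 6 plants each) against the mean of both family means in CPM on a log axis, one point per tested gene, with called genes coloured by direction. Called genes lie on both sides of 0 at all levels, and above 100 CPM 546 are higher in the NRPE1 family against 234 in the NRP(D/E)2 family.

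The family difference was read again in the transgenic plants, which share no library with the non-transgenic ones. Transgenic NRPE1 and NRP(D/E)2 plants differed in 12668 of 32254 tested genes (39.3%), 6244 higher in the NRPE1 family (19.4%) and 6424 lower (19.9%). These plants also differ in the construct they carry. Of the 11989 genes called between non-transgenic families, 11837 were tested in the transgenic plants, 11431 (96.6%) had the same sign there, and 8397 (70.9%) were called in the same direction, 4328 higher and 4069 lower; 20 were called in the opposite direction. Read without an expression filter, as group means, 11579 of the 11989 (96.6%) had the same direction. The 8397 genes were 66.3% of the genes called between transgenic families. Among the 18872 genes not called between non-transgenic families, 71.1% had the same sign in transgenic plants.

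The genes called between non-transgenic families had smaller median differences in the transgenic plants. Genes higher in the NRPE1 family had there a median log2 difference of 0.89 and those higher in the NRP(D/E)2 family one of −0.73, against a median over all tested genes of −0.02. For genes that differed by 8-fold or more, the median in the original direction was 3.87 in non-transgenic and 3.41 in transgenic plants, and 790 of 834 (94.7%) were called again. For those under 2-fold the medians were 0.65 and 0.46, and 3342 of 5677 (58.9%) were called again. Across the 30709 genes tested in both kinds of plant, log2 fold changes correlated with r = 0.855 and rho = 0.793, with a slope of 0.787 on the non-transgenic values. Genes are not independent replicates. The genes were called on the non-transgenic values and not on the transgenic ones, so smaller medians in transgenic plants can follow from this choice. The cause of the smaller medians was not tested.

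The 4 named genes were separated by family in transgenic plants too. Glyma.10G168200 had 25.9 to 134 CPM (median 53) in transgenic NRPE1 plants and 0 to 0.436 CPM (median 0.0559) in transgenic NRP(D/E)2 plants. The log2 difference was 9.10 with an SE of 0.64 (edgeR adjusted p = 6.05e-07). Glyma.16G094000 had 1.24 to 10.1 CPM (median 2.61) against 0 to 0.364 CPM (median 0.0897). The log2 difference was 5.11 with an SE of 0.87 (edgeR adjusted p = 0.000531). Glyma.11G229700 had 0.0607 to 0.385 CPM in the NRPE1 family against 14 to 80.9 CPM in the other. The log2 difference was −8.13 with an SE of 0.61 (edgeR adjusted p = 9.52e-07). Glyma.13G357500 had 0.0461 to 0.303 CPM against 26.2 to 49.6 CPM, a log2 difference of −8.29 with an SE of 0.31 (edgeR adjusted p = 8.34e-09). None of the 4 passed the test of a change of the family difference with the transgene, in which the adjusted p of edgeR was 0.257 for Glyma.16G094000 (change in log2 difference −4.03 ± 1.32, SE) and 0.563 to 0.709 for the others.

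**Figure D4:**
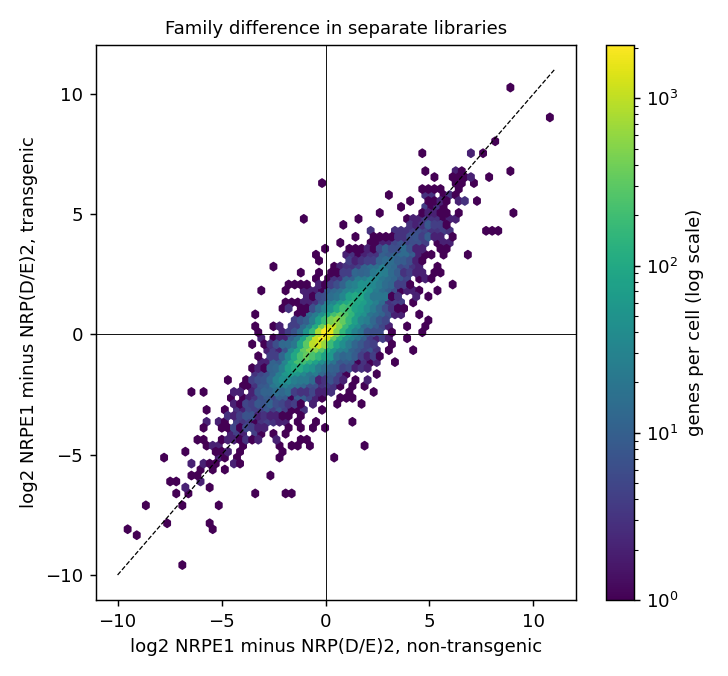
Log2 difference between families in transgenic plants (vertical) against the same in non-transgenic plants (horizontal), as the number of genes per cell on a log colour scale; the dashed line marks equal differences. Across the 30709 genes r was 0.855, and 96.6% of the genes called in non-transgenic plants and tested in transgenic ones had the same sign in both.

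A change of the family difference with the transgene was called for 67 of 33515 genes (0.2%), 41 with a higher and 26 with a lower NRPE1 minus NRP(D/E)2 difference in transgenic plants. Of the 67, 45 were among the 11989 genes that differed between non-transgenic families. In the 44 of these that were tested in transgenic plants, the difference had the opposite sign there in 21, was smaller in 17 and was larger in 6. At an unadjusted p under 0.05 there were 3516 of the 33515 genes, and without NRPE1 replicate 4 the edgeR count was 118. A gene not called in this test is not shown to keep its family difference. DESeq2 called 337 genes, and edgeR with a block for replicate number called 38, so the count depends on the tool and the model.

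Genes that differed between the families were found on all 20 chromosomes, from 35.9% of tested genes on chromosome 19 to 40.3% on chromosome 1. With each chromosome divided into 3 equal parts in the order of identifiers, the middle part held 38.1% called genes (3745 of 9818) and the outer parts 38.7% (8244 of 21303). On chromosome 13, 484 genes were higher in the NRPE1 family against 372 in the NRP(D/E)2 family, so that 56.5% of its calls were higher, and on chromosome 20 it was 227 against 289, or 44%. Under total count scaling these became 38.1% and 28.4%, the former again the highest of the 20 chromosomes and the latter near the lowest, 28.1% on chromosome 5. No test was made between chromosomes.

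**Figure D5:**
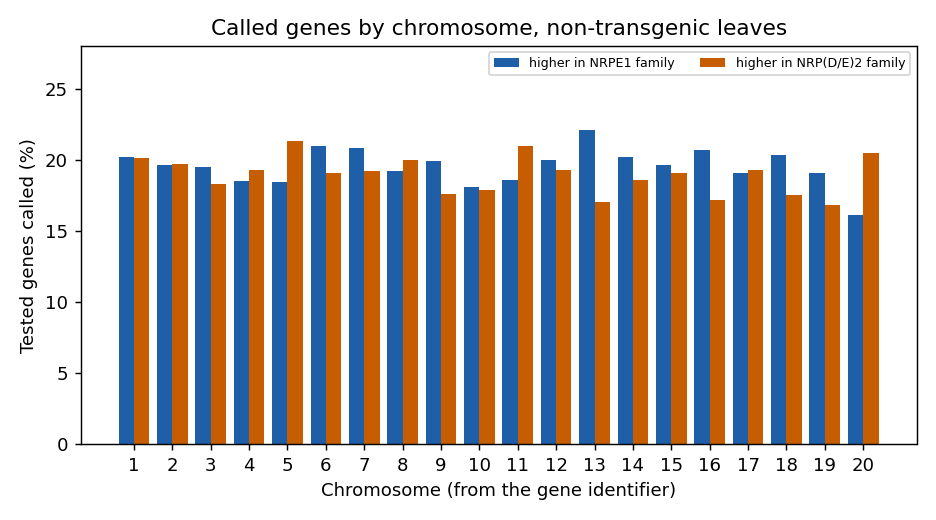
Percent of tested genes called higher in the NRPE1 family and in the NRP(D/E)2 family (non-transgenic leaves, 6 plants each) on each chromosome, read from the gene identifier. Both directions occur on each chromosome, with 22.1% higher in NRPE1 plants on chromosome 13 and 16.1% on chromosome 20.

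Neighbouring genes that were both called had the same direction more often than opposite ones. Among 31101 pairs of adjacent tested genes, both were called in 4852, in the same direction in 3077 (63.4%) and in opposite directions in 1775. The transgenic plants gave 3283 of 5256 such pairs (62.5%). Under total count scaling the share in non-transgenic plants was 66.7%. The share expected from the balance of directions alone was not determined. The densest stretch of 20 tested genes lay on chromosome 16, at ranks 156 to 180 of 2223 identifiers, with 14 genes higher in the NRPE1 family and 0 lower. The mean of log2(CPM + 0.5) over its 20 genes was 3.09 to 3.39 in NRP(D/E)2 plants and 4.27 to 4.47 in NRPE1 plants. In transgenic plants it was 3.35 to 3.62 and 4.47 to 4.73, and 14 of the 20 genes were called in that direction there, against 19.4% of all genes tested in transgenic plants. The stretch was chosen for its non-transgenic calls. Of all genes called between non-transgenic families and tested in transgenic plants, 70.9% were called there in the same direction. That share counts called genes only, while the 14 is given out of all 20 genes of the stretch, so the bases are unlike.

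In the other direction the densest stretch lay on chromosome 11, at ranks 1153 to 1186 of 2570, with 12 of 20 genes higher in the NRP(D/E)2 family and 1 lower. Its mean level was 4.81 to 5.04 in NRP(D/E)2 plants and 3.81 to 4.19 in NRPE1 plants. In transgenic plants it was 4.55 to 4.85 against 3.98 to 4.18. There 10 of the 20 genes were called in that direction, against 19.9% of all tested genes called higher in the NRP(D/E)2 family. Both stretches were chosen for their calls in non-transgenic plants, so the levels there are a description. The 70.9% over all called genes has only called genes as its base, and the stretches are counted over all 20 genes. Whether recurrence in transgenic plants is particular to these stretches cannot be read from it. Over the 20 chromosomes, the densest stretch held 8 to 14 genes higher in the NRPE1 family and 9 to 12 higher in the NRP(D/E)2 family.

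Fewer genes were called between Jack and the NRPE1 family than between Jack and the NRP(D/E)2 family. Between non-transgenic Jack (n = 3) and NRPE1 plants (n = 6), 13511 of 32478 genes (41.6%) were called, with a median absolute log2 fold change of 0.63. Between Jack and the NRP(D/E)2 family it was 17990 of 32766 (54.9%), with a median of 0.80; both comparisons use the same Jack plants, and the difference between them was not tested. Cultivar and descent differ together here. The NRPE1 group includes replicate 4, which stood apart within its family, and the comparison with Jack was not repeated without it. Of the 11989 genes that differed between the Mustang families, the Jack mean lay nearer to the NRPE1 family in 8259 (68.9%), against 59.8% of all tested genes. The share was 69.6% among genes higher in the NRPE1 family and 68.1% among those lower. Genes on in the NRPE1 family only had a Jack mean of at least 0.5 CPM in 30 of 35 cases, and genes on in the NRP(D/E)2 family only in 6 of 29. Of those 29, 9 had no count in Jack. The share of all genes at that Jack level was not determined. The lists also differed in level where they were on, with medians of 3.43 and 1.43 CPM in that order, so their Jack shares cannot be compared directly.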

How the data were processed

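The authors deposited 1 table of raw read counts per library, without header or normalisation, for 55589 Glyma identifiers. The submitters' processing notes name FastQC 0.11.5, STAR 2.5.3a and edgeR without roles; the sources used here give no genome build, annotation, counting program or strandedness, so counts of near-identical, overlapping or antisense genes are uncertain.

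Analyses used R 4.3.3, edgeR 4.0.16, limma 3.58.1 and DESeq2 1.42.0; figures used Python 3.11.15 and matplotlib 3.10.9. Genes were kept by filterByExpr, scaled by TMM and tested by quasi-likelihood in edgeR, with no block for replicate number, 6 against 6 libraries; the change with the transgene used 24. Adjusted p-values are Benjamini-Hochberg over all tested genes. SEs come from the F statistic. Scripts were tested on simulated data. No non-transgenic Mustang library was a repeat of another of its family (chi-square per degree of freedom between plants of a family 13.6 to 110). Other pairs of libraries were not checked in this way. P-values set a difference between groups against the spread between libraries of a group. With 1 family per construct they do not cover the spread between families. Libraries are called plants here, but the labels do not say whether a library holds 1 plant. Members, rules and lists were chosen with earlier results of these data known. Genes were named by log2 fold change among called, non-overlapping genes of at least 5 CPM; the rule allowed more, but without names only 2 each way are given. Gene family and tissue marker lists needed names and were not analysed here. Alternatives were other scalings, filters, tools, sample sets and leaving out each library.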

Additional observations from a re-analysis of the deposited data

Results flagged for a closer look

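Of 22 groups of 6 values checked, 3 held a value far from the other 5, where chance gives about 1 in 20 groups. NRPE1 non-transgenic replicate 4 had 38673 genes detected at the common depth, above the other 5 of its group, whose highest was 38078. In the same library Glyma.13G357500 was at 0.315 CPM, while the other NRPE1 non-transgenic libraries lay below that and 3 were at 0. Glyma.10G168200 reached 134 CPM in NRPE1 transgenic replicate 3, against a group median of 53. The difference between the families changed with the transgene by the interaction test for 67 genes, and for 118 without NRPE1 non-transgenic replicate 4.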

How the results depend on the processing

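The count of genes called between the non-transgenic families stayed within 1.5 times of 11989 in all alternatives run: 11986 with RLE size factors, 13309 under total count scaling, 12305 without a filter, 11898 at a mean of at least 1 CPM, 13219 with DESeq2, 11647 with limma voom, 14531 with 24 libraries, 14441 with all 30, and 10347 to 13375 when 1 library was left out. Higher in the NRP(D/E)2 family were 8931 genes under total count scaling, in place of 5891. DESeq2 called 11955 of the 11989 in the same direction. The 4 named genes held direction and call in each of 21 alternatives, with adjusted p of at most 2.01e-05. They were picked for the largest differences in the same libraries, so this stability follows largely from that choice. Replicate numbers did not pair the plants (same-numbered deviations correlated from −0.486 to 0.402, and 2 of 12 libraries correlated best with their own number); with the replicate block 9271 genes were called between non-transgenic and 9673 between transgenic families. Transgenic families gave 11226 to 13112 calls with 1 library left out. The change with the transgene was called for 337 genes by DESeq2, 38 with the replicate block, 52 under total count scaling and 118 without NRPE1 replicate 4; the cause was not tested. Genes on in the NRPE1 family only numbered 55 without NRPE1 replicate 4 and 50 at limits of 0.2 and 1 CPM, chosen after seeing the data. The difference in genes detected was −92 at 5 counts or more, and −4 to 433 with 1 library left out; that in total counts was −903443 to 458057. The difference in the share of the 10 most abundant genes was 0.33 to 0.677 percentage points with 1 library left out, and 1.75 for the 100 most abundant genes (two-sided exact permutation p = 0.0368). Lists of gene families could not be run without names. A count of 0 in a library allows up to 3 counts.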

Other observations

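Deviations of log2(CPM + 1) from the family mean, over the 31121 tested genes, correlated between NRP(D/E)2 replicate 3 and NRPE1 replicate 5 with r = 0.583, and with NRPE1 replicate 6 with r = 0.431. NRPE1 replicate 4 correlated with NRP(D/E)2 replicate 1 with r = 0.414. NRP(D/E)2 replicate 5 and NRPE1 replicate 5 deviated in opposite directions (r = −0.486). These are descriptions across genes within a pair of libraries, and genes are not independent replicates. On the second principal component of the 12 libraries, which held 19.7% of the variance, NRPE1 plants ran from −122 in replicate 4 to 97.7 in replicate 5 and NRP(D/E)2 plants from −46.8 to 86.5; the ranges overlapped.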
